A study of Mus musculus with 3264 samples.

Results

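The wells described here held single cells of a murine hematopoietic progenitor cell (HPC) line, picked from a mixture with a leukemia line and a T cell line. They were chosen by marker counts: in each well the counts of Plac8, Ifitm1, Mef2c, Cd34 and Tyrobp (HPC), of Cd7, Cacna2d2, Capn3, Aass and S1pr4 (leukemia), and of Bcl11b, Ccdc91, Skap1, Sp9 and Rora (T) were summed, and a well was kept where the HPC genes gave at least 70% of the 3 sums. This left 27.9% of the wells of both kinds of plate: 32 of 75, 31 of 85, 27 of 83 and 21 of 87 wells on random plates 1 to 4 (33.6% of 330), and 17 of 78, 21 of 87, 17 of 71 and 15 of 83 wells on target plates 1 to 4 (21.9%). Wells were loaded by ALPS, a robotic picker guided by images of living cells. On 4 plates the cells were taken at random from the mixture, and on the other 4 the system was set to pick each cell type, with HPC cells in positions 73 to 96. The labels give no strain, passage, culture or treatment for either group beyond the mode of picking, and the plate is the only batch they name. Each well is 1 cell and no culture is named, so each group counts as 1 sample. No test between the groups was possible and none was run. Plates are given side by side as technical batches. The comparison asks whether cells of 1 line carry the same RNA profile when picked blind and when picked by type.

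Type I interferons are secreted alarm proteins. They bind a receptor of Ifnar1 and Ifnar2, and the kinases Jak1 and Tyk2 then activate transcription factors that bind a DNA element of spaced GAAA repeats and switch on a large set of antiviral genes. Blood progenitors and stem cells are known to carry some of these genes at a resting level and to raise them in infection and inflammation.

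In the random HPC wells 14 interferon-related genes were among those called higher. They were 8 of 30 interferon-induced effectors and 6 of 24 interferon sensing and signalling genes compared, against 2.01% of all genes. All gene lists were chosen with earlier results of these data known, so shares of a list are descriptions and not a test. Cd9, Gem and a few genes of other lists were called higher too. Most genes called higher belong to none of the lists and are not named here. Summed levels of chemokine and cholesterol synthesis genes were also higher on every random plate, with 1 or 2 members called. The random wells had lower summed levels of ribosome biogenesis genes and cytosolic chaperones. Levels are in CPM, a gene's counts per 1000000 counts of a plate's HPC wells. Of the 8043 genes with at least 10 CPM in 1 group, 2.01% were higher by at least 2-fold with all 4 random plates above all 4 target plates, and 8 (0.0995%) were lower by the mirror rule. These are the genes said to be called below. Differences are means of log2 (CPM + 1) over the random plates minus those over the target plates. Their median over all 8043 genes was 0.11 and their SD was 0.44. With no limit on size, 710 genes (8.83%) lay higher without overlap and 280 (3.48%) lower. With median-of-ratios scaling of the plate sums the median moved to 0.01 and that split turned to 5.50% higher and 6.74% lower, while the 2-fold calls were 1.43% and 0.225%. Differences below are to be read against that shift of all genes. With random wells limited to positions 73 to 96, where target plates held HPC cells (6 to 9 wells per random plate), 36.4% of the genes called higher were still called, and the calls lost included Stat2, Ddx58, Rtp4, Slfn5, Ccl4, Ccl9, Fos, Myc and Rgs1.

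The HPC wells of the random plates held 1012045, 1034913, 800106 and 607076 counts in all, and those of the target plates 590576, 710417, 549747 and 528502 counts. The sums overlapped between the groups, while random wells were shallower, with plate medians of 26559 to 31475 counts per well against 32266 to 36530. Median genes per well were 5374 to 5646 and 5282 to 5679. Rn45s, the ribosomal RNA precursor, took 8.61% to 12.01% of the summed counts on random plates and 10.1% to 14.6% on target plates. All 70 target wells were labelled HPC, and of the 73 wells with that label 2 met the leukemia rule and 1 the T rule. The kept wells nearest the threshold had an HPC share of 88.9% (random plate 2) and 92.9% (target plate 3), and the nearest wells left out had 40.8% and 36.5%. The rule's own HPC genes gave 2591 to 2988 summed CPM on random plates and 3140 to 3543 on target plates, which is a description, since these genes chose the wells. Leukemia rule genes summed to 8.24 to 24.6 CPM on random and 3.78 to 16.9 CPM on target plates, with Aass at 0, and T rule genes to at most 1.25 and 1.82 CPM, with Sp9 at 0. In the T wells target plates 1 and 2 stood apart from target plates 3 and 4, for example in cholesterol synthesis genes (4163 and 4215 against 1331.5 and 1383.6 CPM), so target plates differ among themselves too.

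The promoters of the called interferon genes are shown first because most of those with an entry share that DNA element. The motif searched was GAAANNGAAA on either strand, in the stretch from 250 bases before to 50 bases after each RefSeq start (GRCm38.p6). It lies in 3.44% of the 32851 promoters listed. Per gene with an entry, it was found for 3.77% of 6321 genes compared, for 16 of 24 interferon-induced effectors compared, and for 6 (5.61%) of the called genes outside the interferon lists. Among the called interferon genes, Isg15, Rsad2, Ifi47, Trim30a, Slfn5, Stat2, Irf7 and Ddx58 had an entry, and Rtp4, Parp14, Parp9, Usp18 and Dhx58 had none. Matches before the start are printed 5′ to 3′ on the gene's strand with 20 bases on each side, the motif or its reverse complement in capitals. A match is a stretch of letters and not a measured site.
Isg15, chr4:156200855-156200916, minus strand: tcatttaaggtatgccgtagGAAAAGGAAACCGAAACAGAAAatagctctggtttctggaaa
Rsad2, chr12:26456543-26456592, minus strand: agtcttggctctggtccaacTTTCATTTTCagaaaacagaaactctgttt
Trim30a, chr7:104465200-104465249, minus strand: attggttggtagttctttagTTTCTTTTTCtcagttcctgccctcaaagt
Slfn5, chr11:82951927-82951976, plus strand: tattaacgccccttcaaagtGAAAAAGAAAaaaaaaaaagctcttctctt
Stat2, chr10:128270256-128270305, plus strand: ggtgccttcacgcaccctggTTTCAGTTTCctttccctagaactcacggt
The Isg15 stretch holds 3 overlapping matches and begins its first match 78 bases before the start. The matches of Rsad2, Trim30a, Slfn5 and Stat2 begin before it too, Trim30a closest at 36 bases. Ddx58 has a match after its start, as has a second promoter of Trim30a, and neither is printed. Irf7 and Ifi47 have no match in this window.

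No interferon gene itself was seen: Ifnb1, Ifng, 4 Ifna genes and 2 Ifnl genes had no count in any HPC well, which allows up to 0.869 CPM over the random and 1.26 CPM over the target wells (3 counts each, counting error only). Transcripts of the type I receptor and its kinases were present in both groups. Ifnar2, a chain of the type I receptor, was at 79.1 to 122.5 CPM on random plates and 60.5 to 125.5 CPM on target plates. Jak1, the kinase bound to it, was at 73.3 to 102.8 CPM and 62.7 to 100.6 CPM. Both overlapped between the groups, with differences of 0.13 and 0.07.

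The interferon sensing and signalling list includes the receptor chains, their kinases and RNA sensors. Of its 24 genes compared 6 were called higher and 0 lower (2.01% and 0.0995% of all genes). The list as a whole differed little: 15 of the 24 had a difference above 0 and 9 below (5073 of 8043 above for all genes). The median difference of the 24 was 0.23, and it lay between 0.015 and 0.28 under the other settings tried. Irf7, the transcription factor that amplifies interferon production, was at 20.8, 18.4, 39.99 and 34.6 CPM on random plates 1 to 4 and at 3.39, 2.82, 1.82 and 3.78 CPM on target plates 1 to 4. Every random plate lay well above every target plate, and no plate stood out within its group. The difference was 2.85, and the ratio of pooled levels was 9.15 (93 against 7 counts, exact 95% counting interval 4.27 to 23.4). Usp18, which strips Isg15 from proteins and dampens the receptor, was at 12.8, 23.2, 23.7 and 24.7 CPM against 1.69, 0, 0 and 0 CPM. The random wells held 71 of its counts and the target wells 1, which gives a ratio of 48.9 with a wide interval of 8.499 to 1959. Stat2, a transcription factor of the pathway, was called with a smaller difference of 1.09, as were the RNA sensors Ddx58 (1.52) and Dhx58 (2.61), a modulator of Ddx58. The calls for Stat2 and Ddx58 were lost when plate sums were thinned to equal depth.

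Among interferon-induced effectors, the antiviral products of the pathway, 8 of 30 compared were called higher (Isg15, Rsad2, Ifi47, Rtp4, Parp14, Parp9, Trim30a and Slfn5) and 0 lower, against 2.01% of all genes. A further 6 lay higher without overlap at under 2-fold, among them Ly6e and Lgals3bp with differences of 0.74 and 0.61. In all, 14 of the 30 lay higher without overlap, against 8.83% of all genes. The difference was above 0 for 28 of the 30 effectors (5073 of 8043 for all genes). Their median was 0.92, or 0.86 with the 3 members that had no target count set to the floor, and it lay between 0.74 and 1.22 under the 22 other settings tried. A gene of any list could be compared on its random level alone, as the 3 members without a target count were. The filter itself then favours a difference above 0, so the count of signs and the median are descriptions. The 50 listed genes together, with no filter, gave 1908, 1803, 2176 and 2768 CPM on random plates and 1502.8, 1320.7, 1124.8 and 1095.5 CPM on target plates. The highest random plate owes its place to 1 well, described below, without which it was at 1902 CPM.

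**Figure D1:**
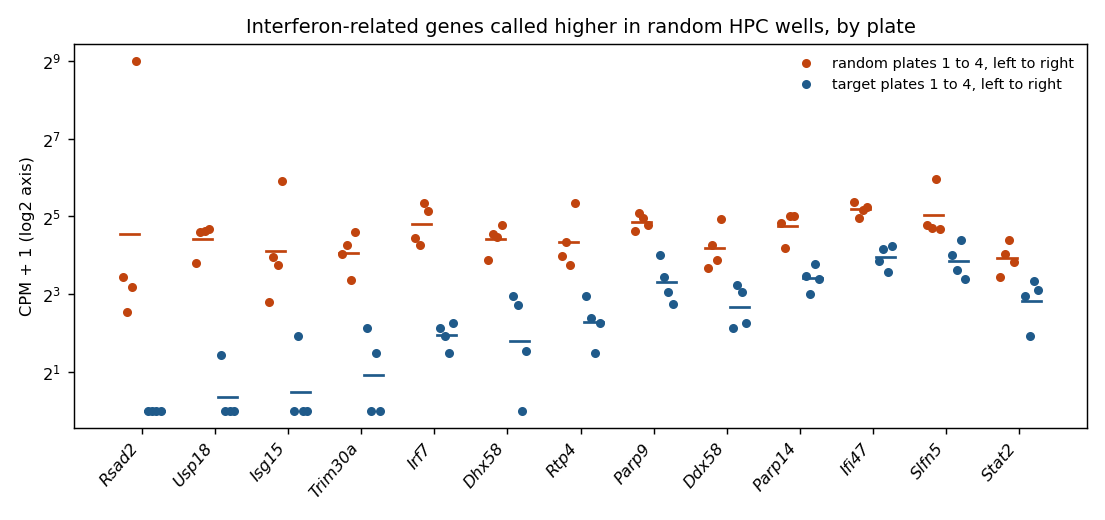
CPM + 1 on a log2 axis for 13 called interferon-related genes in HPC wells; each point is 1 plate (summed counts of its HPC wells), plates 1 to 4 from left to right, and the bar is the mean of the log2 values. In every gene the 4 random plates lie above the 4 target plates, and Rsad2 and Isg15 are far higher on random plate 4 (508.2 and 59.3 CPM) than on the other random plates.

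Isg15, a ubiquitin-like protein attached to targets during the antiviral response, was at 5.93, 14.5, 12.5 and 59.3 CPM on random plates and 0, 2.82, 0 and 0 CPM on target plates. Its 67 random counts came from 15 wells, 30 of them from a single well on plate 4. Without that well plate 4 was at 10.5 CPM and the gene was still called, with a difference of 3.02. Trim30a, an interferon-induced ubiquitin ligase, was at 15.3, 18.4, 9.37 and 23.1 CPM against 3.39, 0, 1.82 and 0 CPM. No single well made up more than 10.7% of its 56 random counts, and the target wells held 3. The ratio was 12.9 (4.18 to 64.2). Rtp4, a chaperone that is also a viral restriction factor, was at 14.8, 19.3, 12.5 and 39.5 CPM against 6.77, 4.22, 1.82 and 3.78 CPM. Parp9 and Parp14, partner ADP-ribosyltransferases, differed by 1.55 and 1.35, and Ifi47, an interferon-inducible GTPase, by 1.23. Slfn5 differed by 1.18 and was highest on random plate 3 (61.2 CPM against 24.7 to 26.7 CPM on the others); its call was lost without that plate, and the calls of Slfn5 and Ifi47 were lost at equal depth. Trim30a and Slfn5 have close relatives, and how molecules were shared between similar genes is not given in the sources used here.

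The effector list was higher in the typical well, not only in the highest. Its median share of a well's counts was 0.176%, 0.161%, 0.189% and 0.174% on random plates and 0.142%, 0.129%, 0.115% and 0.0999% on target plates, so the plate medians did not overlap. The lowest wells were alike, at 0.0620% and 0.0461% of counts. The highest target well reached 0.347%, and 11 random wells exceeded it. At an equal 15000 counts per well, which left out 7 random and 4 target wells as too shallow, a random well had a median of 10 of the 50 list members with a count (3 to 25) and a target well 7.5 (3 to 17). Irf7 had a count in 25.96% of thinned random wells (exact 95% interval 17.9% to 35.5%) and in 6.06% of target wells (1.68% to 14.8%), against 39.6% of random and 7 of 70 target wells without thinning. For Usp18 the thinned shares were 15.4% and 1.52%, with 24.3% and 1.43% unthinned. For Trim30a they were 21.2% and 1.52%, with 28.8% and 4.29% unthinned. Each of these transcripts was thus found in a minority of random wells on every random plate (at least 13.8% of wells for Usp18). At such low CPM a well of 15000 counts can miss a transcript, so these shares do not mark out a subset of cells. Intervals cover counting error only, and wells of a plate are not replicates.

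**Figure D2:**
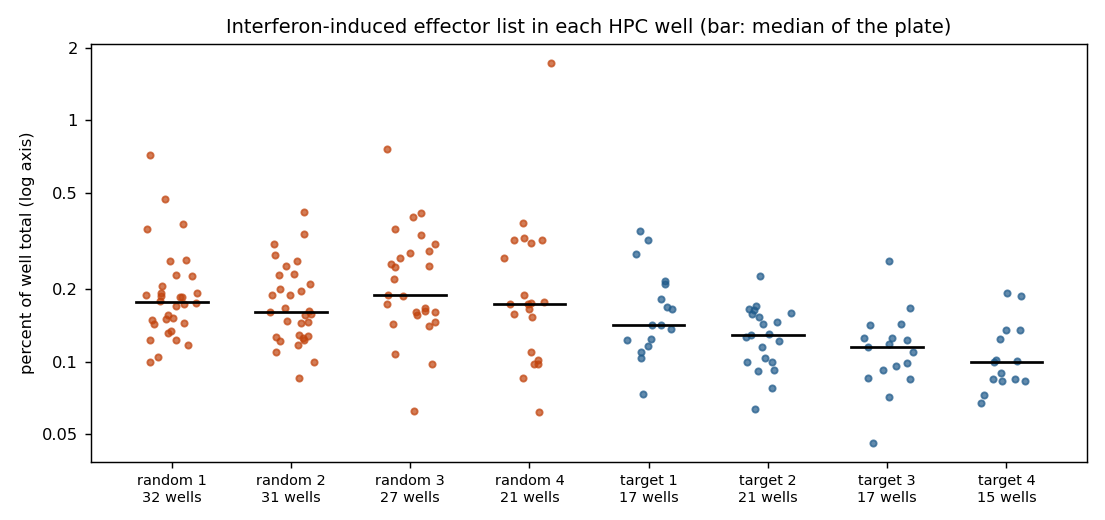
Percent of each HPC well's counts in the interferon-induced effector list (log axis), by plate; each point is 1 well and the bar is the plate's median. The 4 random medians (0.161% to 0.189%) lie above the 4 target medians (0.0999% to 0.142%), and 1 well of random plate 4 stands alone at 1.73%.

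That well, in position 28 of random plate 4, had 34150 counts, 5802 genes and an HPC marker share of 100%, the measure that chose the wells. Its total was above the median well of each random plate and within the range of the target plates' medians. It held 303.5 of the 330 Rsad2 counts of all random wells, where Rsad2 encodes viperin, an antiviral enzyme. Rsad2 was at 9.88, 4.83, 8.12 and 508.2 CPM on random plates and at 0 in all 70 target wells. Pooled, this is at least 75.8-fold higher (target set to 3 counts over the group), but without the well plate 4 was at 8.73 CPM, the mean fell under the 10 CPM needed for a comparison and the gene was no longer called. The well also held all 53 counts of Cxcl10 and all counts of Ccl5 but 1, chemokines that draw T cells. Ifit1 and Ifit2, RNA-binding antiviral proteins named here after their values were seen, had 63 and 27 counts in it and 5 and 2 in all other HPC wells. Without the well the differences were 3.11 for Rsad2, 4.06 for Usp18 and 2.84 for Irf7, and the last 2 were still called.

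The same effector list was also compared in the other cells of these 8 plates, where fewer of its members reached 10 CPM. In leukemia wells 0 of 12 members compared were called, with a median difference of 0.00, and in T wells 0 of 13, with a median of -0.19. Over all genes, leukemia wells gave 12 higher (0.158%) and 2 lower (0.0264%) of 7587, and T wells 11 higher (0.142%) and 6 lower (0.0776%) of 7728, against 2.01% higher in HPC wells of the same plates. With 1 sample per group the difference between lines was not tested. HPC cells sorted by flow cytometry and chosen by the same marker rule lay on both sides: the effector list was at 3312 CPM on sorted plate 1 (24 wells) and 1420.7 CPM on sorted plate 2 (28 wells). For the list, sorted plate 1 was above every random plate and sorted plate 2 was within the range of the target plates. Irf7 was at 79.2 and 8.33 CPM there, the second value between the target and the random plates, and Usp18 was at 70.2 and 1.19 CPM.

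**Figure D3:**
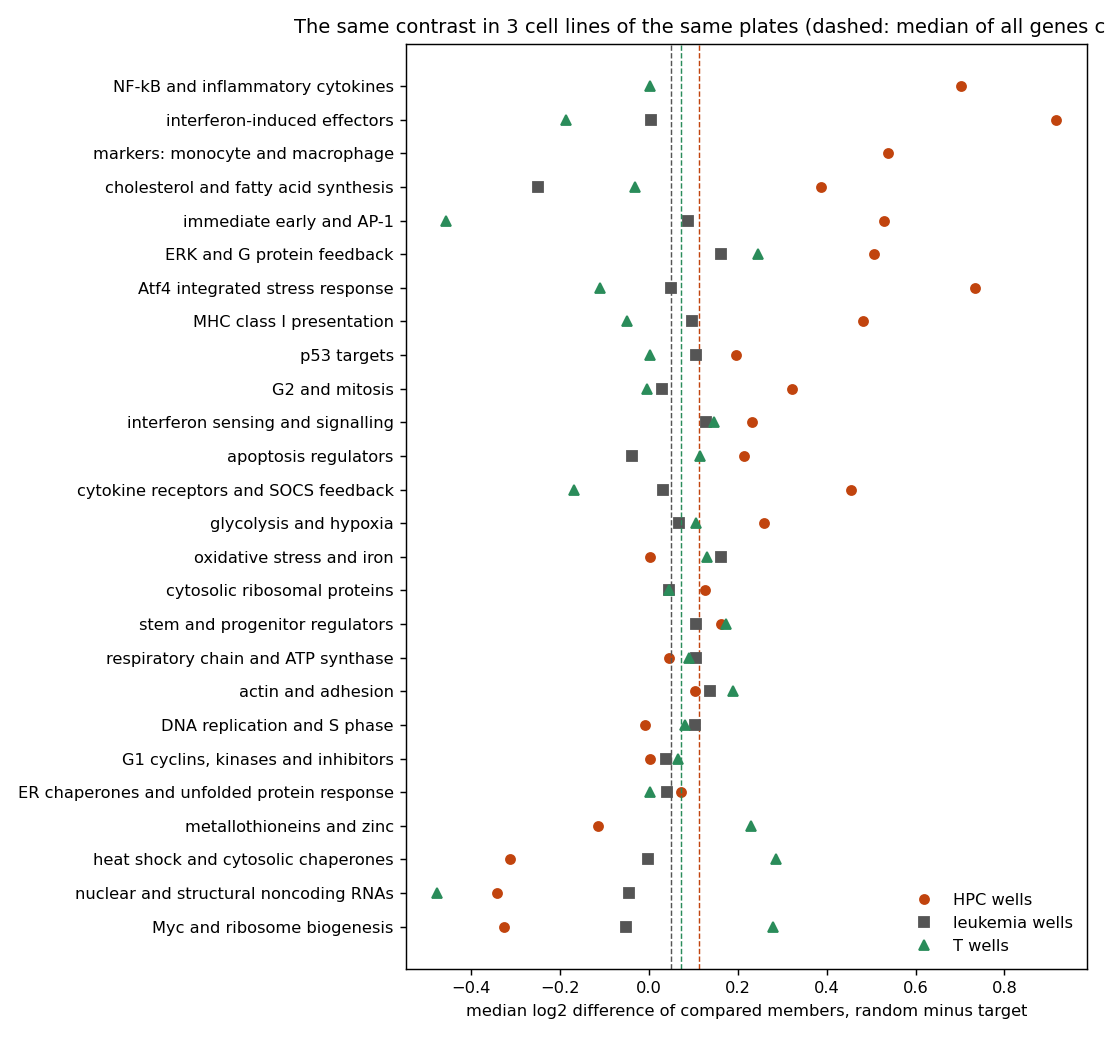
Median log2 difference (random minus target) of the compared members of each gene list with at least 5 compared members, in HPC, leukemia and T wells of the same 8 plates; dashed lines mark the median of all genes compared in each. The interferon-induced effectors are at 0.92 in HPC wells, 0.00 in leukemia wells and -0.19 in T wells.

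Class I antigen presentation, which interferon also raises, was higher by small amounts. None of its 13 members compared was called, 5 lay higher without overlap (8.83% of all genes) and the median difference was 0.48. B2m, the light chain of all class I molecules, was at 750.8 to 802.8 CPM on random and 492.5 to 626.5 CPM on target plates, with a difference of 0.51. H2-D1, a class I heavy chain, was at 213.1 to 246.9 CPM against 164.2 to 201.1 CPM. The immunoproteasome subunit Psmb8 differed by 0.08 and its activator Psme1 by 0.01, and both overlapped. H2 genes resemble each other, so their separate values are uncertain.

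Of 17 chemokines and NF-kB targets compared 2 were called higher (Ccl4 and Ccl9, against 2.01% of all genes) and 0 lower, with a median of 0.70. Their sums were 1804, 1292.7, 1352.1 and 1488.97 CPM on random and 786.5, 707.3, 783.1 and 991.1 CPM on target plates. Without the well with the high Rsad2, random plate 4 was at 1038.4 CPM, just above target plate 4. Ccl4, a chemokine for monocytes and lymphocytes, was at 154.6, 111.1, 186.9 and 151.5 CPM against 86.4, 30.97, 0 and 50.1 CPM. Its place on plate 4 rested on the well with the high Rsad2, which held 79 of its counts. Without that well plate 4 fell to 22.7 CPM, below target plates 1, 2 and 4, and Ccl4 was not called. Ccl9, a myeloid chemokine, was at 62.3, 195.7, 101.2 and 52.7 CPM against 20.3, 22.5, 29.1 and 28.4 CPM. All random plates were above all target plates, with plate 2 highest, and 1 well gave 35.3% of its random counts. Ccl3, close kin of Ccl4, was at 1220.3, 683.6, 730 and 679.5 CPM against 407.2, 421.6, 517.5 and 662.2 CPM, without overlap but with a difference of 0.70.

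Early-response genes were led by Fos, a subunit of the AP-1 transcription factor that cells switch on within minutes of a stimulus. Fos was at 364.9, 170 and 98.7 CPM on random plates 1 to 3 and 92.2 CPM on plate 4, against 59.3, 88.7, 29.1 and 15.1 CPM. It differed by 1.95, with a pooled ratio of 3.84 (3.16 to 4.69). The gap between the lowest random and the highest target plate was small, and the call was lost with median-of-ratios scaling, at equal depth, and without the well described above. Of the 17 immediate early genes compared Fos was the 1 called (2.01% of all genes), their median was 0.53 and their sums overlapped. The partner Jund (0.03) and the transcription factor Klf6 (-0.15) overlapped between the groups, and Atf3, a stress-induced member, was lower by 0.48 with overlap. Of 10 ERK and G protein feedback genes 2 were called, the phosphatase Dusp6 (1.18) and Rgs1 (1.43), which limits chemokine receptor signals, against 2.01% of all genes. The sums of that list overlapped, at 726.4 to 1049.4 CPM and 579.9 to 753.98 CPM. Rgs1 was at 60.3, 73.4, 32.5 and 52.7 CPM against 20.3, 11.3, 18.2 and 30.3 CPM. Osm, a cytokine of the Il6 family, was the 1 called gene of 13 cytokine receptor and feedback genes (1.80), against 2.01% of all genes.

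The remaining genes with the largest differences came from outside these pathways. Cd9, a tetraspanin of the cell surface, was at 57.3, 72.5, 44.99 and 82.4 CPM on random and 3.39, 12.7, 18.2 and 17.03 CPM on target plates. It had a pooled ratio of 5.03 (3.42 to 7.63), the groups were well apart, and it was called under all 22 other settings. Gem, a small GTP-binding protein that shapes the cytoskeleton, was at 63.2, 50.2, 61.2 and 57.7 CPM against 18.6, 19.7, 18.2 and 17.03 CPM. Both groups were tight, and Gem too was called under all settings, as were Dhcr7 and Tnni1. Tnni1, a troponin of slow muscle, was at 157.1, 83.1, 89.99 and 121.9 CPM against 37.3, 52.1, 23.6 and 68.1 CPM. Lilrb4a, an inhibitory receptor of myeloid cells with a near copy in the genome, was at 170.9, 203.6, 98.1 and 207.6 CPM against 45.7, 57.7, 66.4 and 62.1 CPM. Random plate 3 was its lowest random plate and still above all target plates.

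**Figure D4:**
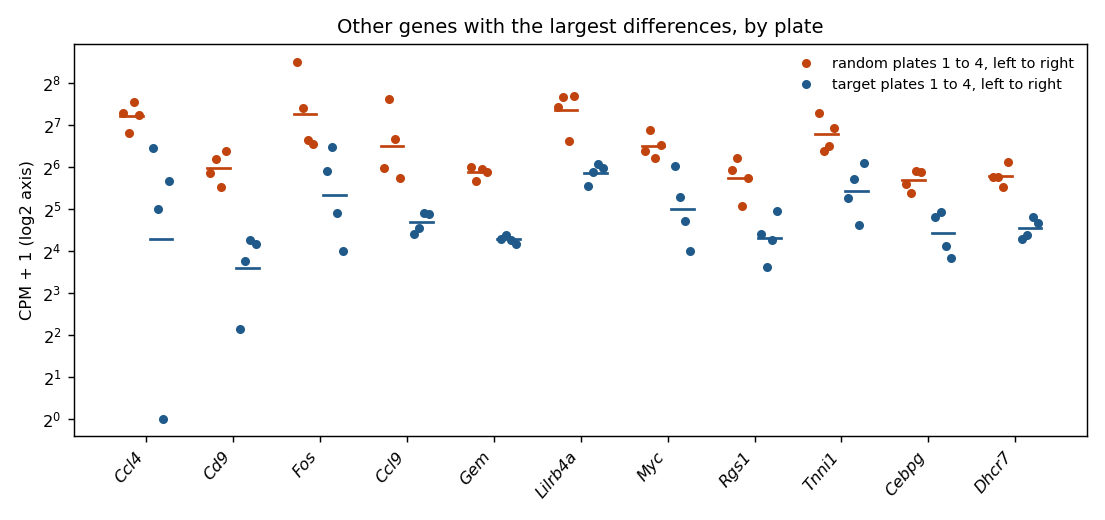
CPM + 1 on a log2 axis for the genes outside the interferon lists with the largest differences among called genes of at least 50 CPM; points are plates 1 to 4 from left to right and bars are means of the log2 values. Gem is tight in both groups (50.2 to 63.2 and 17.03 to 19.7 CPM), while Ccl4 and Fos vary from plate to plate.

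Myc was higher while most genes of ribosome production, which it is known to drive, were at lower levels. Myc, the growth transcription factor, was at 82.01, 116.9, 73.7 and 91.4 CPM on random and 64.3, 38.01, 25.5 and 15.1 CPM on target plates, a called difference of 1.49. The list of Myc and ribosome biogenesis genes, Myc included, was lower: 22 of 27 members had a difference below 0, 8 lay lower without overlap (against 3.48% of all genes) and the median was -0.33. None was called lower, since all were under 2-fold. Together they gave 8025, 9017, 8336 and 8201 CPM on random plates and 10865, 10678, 10835 and 10674 CPM on target plates, which were close to each other. Ncl, an abundant nucleolar protein, was at 2323 to 2535 CPM against 3048 to 3616 CPM. Npm1, the nucleolar chaperone, was at 2093 to 2414 CPM against 2719 to 3015 CPM, and Nop58, a core protein of the RNA-modifying snoRNPs, at 339.2 to 376.4 CPM against 435.2 to 556.6 CPM. In leukemia wells the median was -0.05, with 5 of 27 members lower without overlap, and the sums were lower there too, at 9806 to 10269 CPM against 10501 to 11622 CPM. In T wells the median was 0.28 and the sums overlapped. Of 81 ribosomal protein genes 0 were called, but 35 lay higher without overlap (against 8.83% of all genes), and their sums were 197885 to 208483 CPM against 181147 to 193870 CPM. Their median of 0.13 was near that of all genes and fell to 0.02 with median-of-ratios scaling.

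Cytosolic chaperones were lower in a similar way. Of 11 compared, 9 had a difference below 0, 4 lay lower without overlap (3.48% of all genes) and 0 were called, with a median of -0.31. Hsp90aa1, the inducible form of Hsp90, was at 2314, 2595, 2240 and 2024 CPM against 2896, 3358, 3255 and 3072 CPM. Hsp90ab1, the constitutive form, was at 4078 to 4218 CPM against 4806 to 5840 CPM, and the mitochondrial chaperone Hspd1 at 664.9 to 721.6 CPM against 814.01 to 987.2 CPM. Hspa8 overlapped. The medians of both lower lists stayed below 0 under all settings tried.

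Cholesterol and fatty acid synthesis was higher on each random plate, with 2895, 2495, 2639 and 2375 CPM against 1590, 1688, 2153 and 1909 CPM. Of 21 genes compared 19 had a difference above 0 (5073 of 8043 for all genes), 5 lay higher without overlap (8.83% of all genes) and the median was 0.39. With 1 gene called, the share was near the 2.01% of all genes. The called gene, Dhcr7, which makes the last step to cholesterol, was at 53.9, 53.1, 44.99 and 69.2 CPM against 18.6, 19.7, 27.3 and 24.6 CPM. Fdps, an earlier enzyme of the same route, was at 184.5 to 235.7 CPM against 77.9 to 145.5 CPM, with a difference of 0.94. Scd2, a fatty acid desaturase, was at 775.03 to 928.9 CPM against 390 to 579.4 CPM, and Fasn, the fatty acid synthase, at nearly the same level in both (-0.07). Genes of the Atf4 stress response, which cells use when amino acids run short, had a median of 0.73 over 18 members, of which 17 were above 0 and 2 were called, Cebpg and Nupr1 (2.01% of all genes). The list summed to 1917, 2339, 1980 and 2918 CPM on random plates and 1908, 1749, 1647 and 1768 CPM on target plates. Random plate 1 was thus only just above target plate 1. Random plate 4 was highest, at 2671 CPM without the well with the high Rsad2. Cebpg, a partner of Atf4, was at 47.1, 40.6, 58.7 and 57.7 CPM against 27.1, 29.6, 16.4 and 13.2 CPM. Nupr1, a small stress protein, was at 10.9, 15.5, 6.25 and 21.4 CPM against 1.69, 0, 1.82 and 0 CPM. In leukemia and T wells the Atf4 list had medians of 0.05 and -0.11. Pfkp, a glycolytic enzyme, was the 1 called gene of 24 in glycolysis and hypoxia (median 0.26), against 2.01% of all genes. The Pfkp call was lost with a mean of per-well CPM, at equal depth and with random wells at positions 73 to 96 only.

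**Figure D5:**
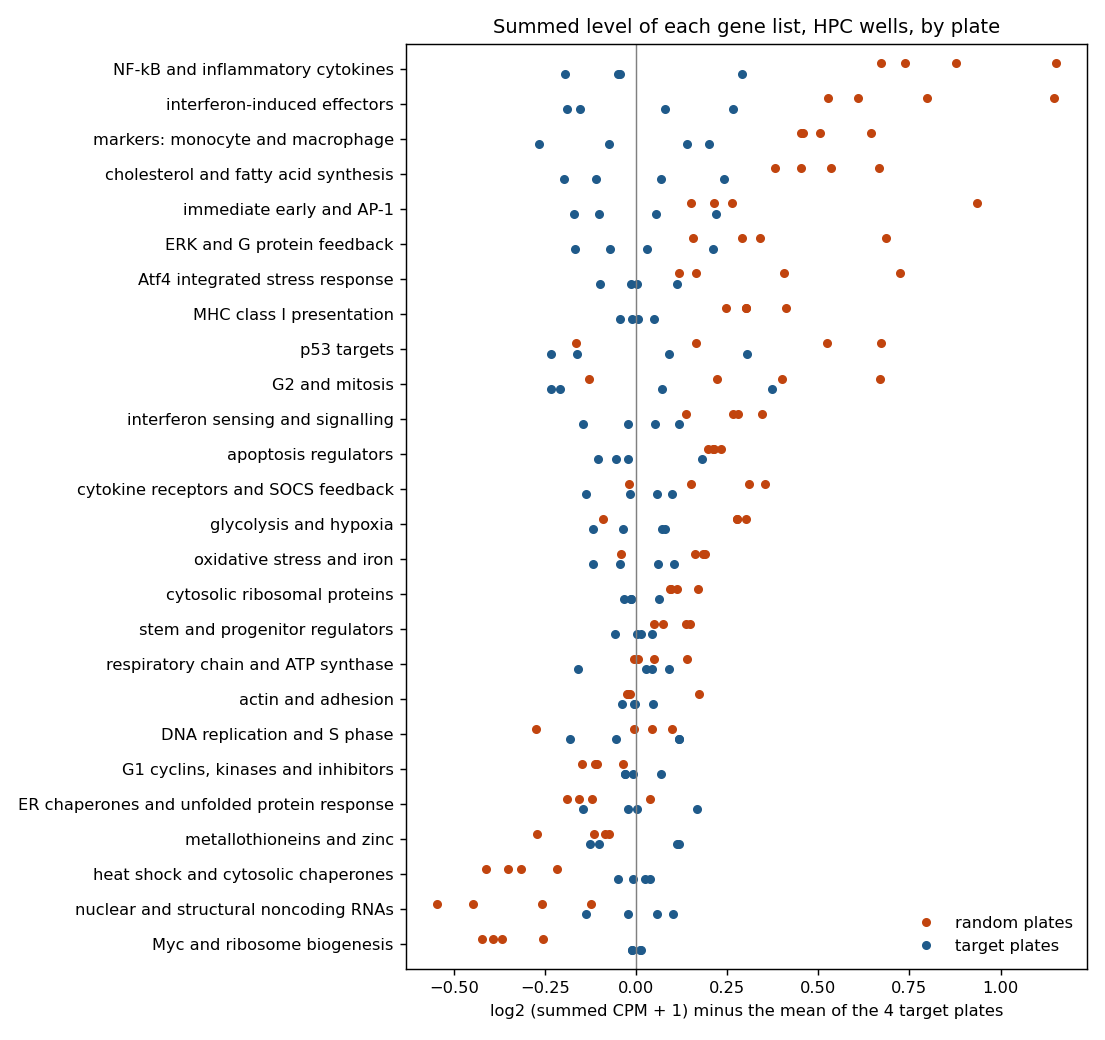
Summed level of each gene list with at least 5 compared members in HPC wells, as log2 (summed CPM + 1) minus the mean of the 4 target plates; each point is 1 plate. All random plates lie above all target plates for the interferon effector, interferon signalling, class I, NF-kB, Atf4, cholesterol and monocyte lists. The same holds for apoptosis regulators, stem and progenitor regulators and cytosolic ribosomal proteins. The Myc and ribosome biogenesis, cytosolic chaperone and G1 lists have all random plates below.

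None of the compared members was called in p53 targets (13), apoptosis regulators (13), DNA replication (30), G2 and mitosis (34), G1 cyclins and inhibitors (15), ER chaperones (15), oxidative stress (18), stem and progenitor regulators (21) or the respiratory chain (78). G2 and mitosis genes had a median of 0.32 but their sums overlapped, at 2550 to 4435 CPM and 2371 to 3610 CPM. Sums lay without overlap in 3 of these lists: higher for stem and progenitor regulators (1991.96 to 2132.8 against 1847.7 to 1982.7 CPM) and apoptosis regulators (1027.3 to 1052.3 against 833.1 to 1015.96 CPM), and lower for G1 genes (1832.1 to 1978.7 against 1987.9 to 2127.5 CPM). Of the 8 genes called lower none had a group mean of 50 CPM. They were Taf4b, Rnu12, Usp46, Scarna17, Kyat3, Zfp367, Ada and Slc30a1, of which only Rnu12 and Slc30a1 were in a list and the others are named after their values were seen. Rnu12, the RNA of the minor spliceosome, was at 6.92 to 21.2 CPM against 28.4 to 50.9 CPM, and the zinc exporter Slc30a1 at 5.80 to 9.88 CPM against 13.5 to 18.9 CPM.

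Markers of other cells moved with the groups in part. Of 17 monocyte and macrophage markers 11 were compared, 8 with a difference above 0 and 3 below. Of these 2 were called higher, Ly6c2 (1.09) and Fcgr1 (1.06), against 2.01% of all genes. The sums of the list were 1521.5 to 1740 CPM against 924.3 to 1277.1 CPM. Fcer1g, a signalling chain of Fc receptors, was at 516.2 to 647.2 CPM against 276.3 to 367.4 CPM. F13a1 had no count, and Lyz2, Lyz1, Cd14, Adgre1 and Ms4a6c were under 10 CPM in both groups. The calls for Ly6c2 and Fcgr1 were lost with median-of-ratios scaling and at equal depth, and that for Fcgr1 also without the well with the high Rsad2. Cmah, listed as a gene of the leukemia line, was at 32.6, 3.38, 23.7 and 23.1 CPM on random and 1.69, 4.22, 5.46 and 5.68 CPM on target plates, while Cd160, Cd3g, Cd3e and Cx3cr1 of the same list were under 10 CPM. Of 13 neutrophil granule markers 10 had no count, and none of the mast cell or megakaryocyte markers reached 10 CPM. The parts of these markers, of the lower counts per random well and of the lower Rn45s share in the differences above were not tested. The differences in picking mode, plate and time of picking cannot be told apart.

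Each random plate was also set against the other 7 plates. Random plate 1 stood at least 2-fold above all others in 3 genes (0.0373% of 8043) and below in 5 (0.0622%). Fos was among the 3, and the immediate early list summed to 2328 CPM there against 1352.4 to 1461.96 CPM on the other random plates. Random plate 2 was above in 10 (0.124%) and below in 5 (0.0622%). Lrrc17, a secreted leucine-rich repeat protein, was at 121.3 CPM there and at 7.41 to 54.2 CPM elsewhere, Terf2ip, a telomere protein, at 55.1 CPM and 6.77 to 18.8 CPM elsewhere, and Adam8, a surface protease, at 52.2 CPM and 5.08 to 23.1 CPM elsewhere. Single wells gave 33.2%, 51.1% and 26.4% of their random counts. Random plate 3 was above in 3 (0.0373%), among them Slfn5, and below in 10 (0.124%). Random plate 4 was above in 33 (0.41%) and below in 18 (0.224%), and its leading genes Ccl5, Cxcl10 and Rsad2 came from the well described above. No gene of at least 50 CPM was lowest by that rule on any random plate.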

How the data were processed

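RNA of single cells was counted in wells of 8 plates, 4 picked at random and 4 by type; 181 of 649 wells (111 random, 70 target) met the HPC rule, and 162 of 8043 genes compared were called higher. The deposited unit is the expected count: molecules of each gene in each well, unscaled by the authors; 5.29% of positive values in the HPC wells were not whole. Per the submitters' processing notes, reads went through bcl2fastq and STAR with mm10; of versions, counter and annotation nothing is given in the sources used here. The table lists 24781 genes, with 0 ERCC and 0 mitochondrially encoded rows, and 1008 further columns were not used. No 2 HPC wells were identical.

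Counts of HPC wells were summed per plate, scaled to CPM over all genes and compared as log2 (CPM + 1) where 1 group had at least 10 CPM. A gene was called at 2-fold with no overlap between the plates of the groups; the rule without a fold limit was added after the data were seen. No p-value was computed, because each group counts as 1 sample. Ratios are of pooled counts with exact binomial 95% intervals, shares have exact Clopper-Pearson intervals, and both cover counting error only. Counts were rounded only for thinning (seed 1) and, once pooled, for the ratios and their intervals. Named genes were the 12 largest differences in each direction among called genes with at least 50 CPM and 30 counts, up to 3 genes per direction for each random plate apart from the other plates, called members of 27 gene lists and 12 marker lists, the 4 members of each list with the highest CPM, and the 15 rule genes. Predicted genes were left out. Members and lists were chosen with earlier results of these data known. The calling step was tested on simulated data. Alternatives covered the pseudocount, the filter, the marker threshold, scaling, well weights, positions, left-out plates, deep wells, 1 left-out well and thinned sums. Scripts ran in python 3.11.15 with pandas 2.3.3 and numpy 2.4.6; scipy 1.17.1 gave the intervals and matplotlib 3.10.9 the plots. The values of 1 called signalling gene are not reported here; it stays in the counts.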

Additional observations from a re-analysis of the deposited data

Results flagged for a closer look

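In 4 of the 60 groups of 4 plates examined (30 lists, random and target plates apart), 1 plate's summed level lay far from the other 3, by a gap that chance alone gives in about 1 in 20 groups. Immediate early and AP-1 genes were highest on random plate 1 (2328 CPM against 1352.4 to 1461.96 CPM), where the gap was 0.857 of the whole range on the log2 scale. Glycolysis and hypoxia genes were lowest on random plate 1 (6327 CPM against 8169 to 8316 CPM), with a gap of 0.935 of the range. Oxidative stress and iron genes were lowest on random plate 3 (8954 CPM against 10318 to 10519 CPM), with a gap of 0.880. Actin and adhesion genes were highest on random plate 2 (18028 CPM against 15708 to 15813 CPM), with a gap of 0.951. All 4 were random plates, and none of these 4 lists kept its random and target plates apart.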

How the results depend on the processing

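Called genes are given as a percent of the genes compared. Genes higher in random HPC wells (2.01%) became 1.08% with 5 CPM added, 0.599% among genes of at least 50 CPM, 2.11% of a longer list with no filter and 3.07% without target plate 1; leaving out 1 plate gave 2.18% to 3.07%. Thinning plate sums to 528444 counts gave 1.87% and kept 61.7% of the genes called. Genes lower (0.0995%) became 0.0249% with 5 CPM added, 0 at 50 CPM, 0.211% with no filter, 0.169% without Rn45s, 0.225% with median-of-ratios scaling, 0.161% as a mean of per-well CPM, 0.721% with random wells at positions 73 to 96 only and 0.175% at equal depth; leaving out 1 plate gave 0.149% to 0.310%, the highest without target plate 1. Called interferon effectors (8) numbered 1 at 50 CPM and 7 to 13 with 1 plate left out, the 13 without random plate 2. Called signalling genes (6) numbered 0 at 50 CPM, 3 at positions 73 to 96 and 5 to 6 with 1 plate left out. Fewer genes are compared at 50 CPM. With 1 plate left out, the rule of no overlap has fewer plates to keep apart and is met more easily. Genes higher without overlap then rose from 8.83% to between 11.1% and 13.2%. The cause of the other shifts was not tested. Of the 33 called named genes, none changed sign under any of the 22 settings in which it was still compared. Among genes still compared, positions 73 to 96 ended the call of 18, equal depth that of 9 and each other setting that of at most 4. Genes that fell under the filter are not counted as lost there, as for many at 50 CPM and for Rsad2 without its highest well. The well counts stayed within 1.5 times with an HPC share of 50% or 90%. No paired analysis was possible because the result comes from no test and the plates share only a number. Depth limits genes near 10 CPM, which rest on a few counts per plate.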
